A study of Mus musculus with 8 samples.

Results

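The enzyme genes described here are those of gluconeogenesis, the urea cycle and amino acid breakdown, a set of 32 mouse genes whose products make glucose, dispose of nitrogen and degrade amino acids in the liver. A gene was measured where a probe set annotated to it alone was present on both kinds of Affymetrix array in the study, and 28 of the 32 genes had such a probe set, out of 12394 genes on both arrays with a probe set of 1 symbol. Of the other 4 genes, Sds, Sdsl and Gls2 were not analysed here, and Ass1 had a single-symbol probe set on the tumour arrays alone. The rule for these genes is a list of names and uses no expression value, although the list was drawn up with earlier results of these data known.

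All animals were p53-/- mice on a C57BL/6J background. The first comparison used hepatocellular carcinomas (HCC) from HBs transgenic mice of 12 to 15 months, 3 tumours from mTERC- mice against 3 tumours from mTERC+ mice, 1 mouse and 1 tumour per array. mTERC is the gene of the RNA part of telomerase, and HBs is the hepatitis B surface antigen transgene, for which the labels name no promoter. The second comparison used whole liver RNA taken 48 h after intravenous adenovirus, Ad TRF2DBDM against Ad GFP, with 3 mice pooled on 1 array per virus. TRF2DBDM is a truncated form of the telomere protein TRF2 and GFP is green fluorescent protein. The loss of p53 was shared by every mouse in both comparisons, and HBs by every tumour. The tissue label reads "hepatocytes" for all 8 arrays, although the design describes liver and tumour RNA. In such bulk RNA, fewer cells of a type and less RNA per cell cannot be told apart.

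Hepatocytes make glucose from lactate, glycerol and amino acid carbon when food is scarce, and they are the main site where ammonia is turned into urea. Breakdown of tyrosine, histidine, tryptophan, proline, lysine and branched-chain amino acids releases nitrogen that the urea cycle removes. For some of these amino acids, but not all, it also feeds carbon into glucose. Many of these genes are induced in liver by glucagon and glucocorticoids, are expressed most in the periportal part of the lobule, and are known to decline in hepatocellular carcinoma.

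The values were MAS5 signals, a linear brightness per probe set that the authors scaled so that each array had a trimmed mean of 150. Log2 differences and ratios are those of the signal plus 32, an offset that damps differences of dim genes. The 2 array types were scaled apart, so signals were set against each other only within a comparison and within a probe set. One tumour array, mTERC- tumour 2, stood apart: its median signal was 75.1, against 54.5 to 59.4 on the other tumour arrays, and its 3' over 5' signal ratio of Gapdh was 13.8, against 0.983 to 1.18. The other controls differed less: its Actb ratio was 2.28, against 1.30 to 1.64. Its Pcx ratio was the lowest of the tumour arrays, 1.98 against 2.43 to 4.71. The 18S ribosomal RNA control gave 318.5 and 349 in mTERC- tumours 2 and 3, against 11010 to 27810 on the other 4 tumour arrays. Counts are therefore also given without mTERC- tumour 2 and with the 18S level as a block.

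The 4 genes Hpd, Hal, Amdhd1 and Haao had the largest ratios in the adenovirus pair, each over 5-fold, and lower mean signals in mTERC- tumours. Hpd acts in tyrosine breakdown, Hal and Amdhd1 in histidine breakdown and Haao in tryptophan breakdown. Their promoter windows are shown to place them in the genome and to show which of the searched liver factor motifs they hold. Each runs 5′ to 3′ on the gene's strand from 250 bases before the RefSeq transcription start to 50 bases after it, on the mouse build GRCm38.p6. Capitals mark the matches to the motifs given below. The windows are chr5:123182674-123182973 (minus strand) for Hpd, chr10:93488518-93488817 (plus strand) for Hal, chr10:93539984-93540283 (minus strand) for Amdhd1 and chr17:83846741-83847040 (minus strand) for Haao.
Hpd: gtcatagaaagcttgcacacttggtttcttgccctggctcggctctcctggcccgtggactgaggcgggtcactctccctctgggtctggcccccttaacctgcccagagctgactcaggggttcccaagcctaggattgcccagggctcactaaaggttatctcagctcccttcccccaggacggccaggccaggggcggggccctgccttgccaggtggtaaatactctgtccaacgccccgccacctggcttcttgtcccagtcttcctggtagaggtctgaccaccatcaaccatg
Hal: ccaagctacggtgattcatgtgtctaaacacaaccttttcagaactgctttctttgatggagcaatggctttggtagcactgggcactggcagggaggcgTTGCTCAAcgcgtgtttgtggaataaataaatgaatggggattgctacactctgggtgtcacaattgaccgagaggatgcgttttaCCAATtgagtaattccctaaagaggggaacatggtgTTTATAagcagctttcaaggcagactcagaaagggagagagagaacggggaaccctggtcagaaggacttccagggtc
Amdhd1: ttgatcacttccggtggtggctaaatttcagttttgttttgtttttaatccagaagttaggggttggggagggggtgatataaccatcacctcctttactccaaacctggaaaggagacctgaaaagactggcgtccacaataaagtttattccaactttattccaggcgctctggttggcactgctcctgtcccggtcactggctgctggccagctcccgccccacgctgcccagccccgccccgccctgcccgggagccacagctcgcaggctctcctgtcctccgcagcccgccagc
Haao: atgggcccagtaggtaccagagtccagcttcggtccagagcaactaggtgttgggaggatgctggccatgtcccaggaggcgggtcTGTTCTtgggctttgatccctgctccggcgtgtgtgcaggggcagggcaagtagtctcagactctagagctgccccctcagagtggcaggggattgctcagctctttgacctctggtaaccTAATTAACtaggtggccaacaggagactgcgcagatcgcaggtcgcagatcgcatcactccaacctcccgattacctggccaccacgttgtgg

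Of the 28 genes, 23 had a promoter in the RefSeq table, 24 windows in all, and 5 had none. Motifs were searched on both strands in these and in all 32851 windows of the table. The CCAAT box (CCAAT), bound by NF-Y, was in 13 of the 24 windows (54.2%), against 37.4% of all windows. The C/EBP site (TTGCNNAA) was in 4 of 24 (Aass, Gcdh, Hal and Hgd), against 10.8% of all windows, and the HNF1 site (GTTAATNA) in 2 of 24 (Haao and Pck1), against 2.54%. These are small counts of windows and no test was made on them.

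The full cAMP response element (TGACGTCA) was in 0 of 24 windows, against 1.79% of all, and its core (TGACG), which the full element contains, in 3 of 24 (Aass, Nags and Pck1), against 20.8%. The forkhead site (TGTTTAC) was in 0 of 24 windows, against 3.65% of all, and its variant (TGTTTGC) in 2 of 24 (Aass and Tdo2), against 5.07%. The glucocorticoid receptor core (TGTTCT) was in 3 of 24 (Agxt, Haao and Kmo), against 19.0%, and the TATA box (TATAAA) in 3 of 24 (Hal, Hgd and Tdo2), against 13.6%. In the Hal window the TATA letters began 28 bases before the start, CCAAT 64 bases before it and the C/EBP letters 150 bases before it. The Haao window held the HNF1 letters from 43 bases before the start and the glucocorticoid receptor core from 164 bases before it. The Hpd and Amdhd1 windows held no match to any of these motifs. In Aass the C/EBP and forkhead variant matches overlapped. Hal and Amdhd1, which encode enzymes of histidine breakdown, are next to each other on chromosome 10 in the RefSeq gene table and on opposite strands.

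In the tumours, no gene of the set passed the test, and 20 of the 27 tested genes had a lower mean level in mTERC- tumours. The test was limma over 11622 genes, with a Benjamini-Hochberg adjusted p below 0.05, and the smallest adjusted p in the set was 0.926, for Hpd. Over all genes tested, 0.0086% were called higher in mTERC- tumours and 0.0% lower, and 49.0% had a lower mean there. The median log2 difference of the 27 genes was -0.40, against 0.01 over all genes tested. At an unadjusted p under 0.05, 7 genes of the set were lower (Hpd, Haao, Hal, Got1, Aass, Pcx and Uroc1) and 0 were higher, where all genes gave 2.54% lower and 2.5% higher. Signals of the groups did not overlap for 5 genes, all lower in mTERC- tumours (Hpd, Got1, Haao, Aass and Amdhd1), where 4.5% of all genes were lower without overlap. None of the set was higher without overlap, where 5.63% of all genes were. The Kynu probe set found on both array types was below the level filter and was not tested.

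These counts moved with the arrays that stood apart. Without mTERC- tumour 2, the median of the 28 measured genes was -0.17, against -0.38 with all tumours, 17 of 27 had a lower mean (49.0% of all genes), and 5 were lower and 2 higher at an unadjusted limma p under 0.05 (2.33% of all genes lower and 1.99% higher). Signals of the groups then did not overlap for 6 genes lower and 2 genes higher, where 9.61% of all genes were lower and 10.3% higher without overlap. With the 18S level as a block, the median of the 28 genes was -0.03, 13 of 27 had a lower mean (48.6% of all genes), and 1 was lower and 3 higher at an unadjusted p under 0.05 (2.06% of all genes lower and 1.22% higher). That block left mTERC- tumour 1 alone to be set against the mTERC+ tumours. The part of RNA quality in the tumour differences was not tested beyond these fits, and neither was the reason for the low 18S signals. mTERC- tumour 3, with a low 18S signal, had a 3' over 5' Gapdh ratio of 0.983. The TRF2DBDM and GFP arrays, of the other type, had 18S signals of 34.5 and 31.5.

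Between the 2 adenovirus pools, most of the set had more signal after Ad TRF2DBDM. Of 27 genes compared, 23 were higher in the TRF2DBDM pool, where 51.1% of all 6981 genes compared were higher, and 16 were at least 2-fold higher, where 4.24% of all genes were. None of the set was at least 2-fold lower, where 2.58% of all genes were. The median log2 ratio was 1.18, against 0.01 over all genes compared. With 1 array per virus there is no replicate check and no test, so these are differences between 2 pools of 3 mice. Amdhd1, Hal, Haao and Hpd led, and Nags, Got1, Gldc and Gpt were the 4 genes not higher in the TRF2DBDM pool.

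**Figure D1:**
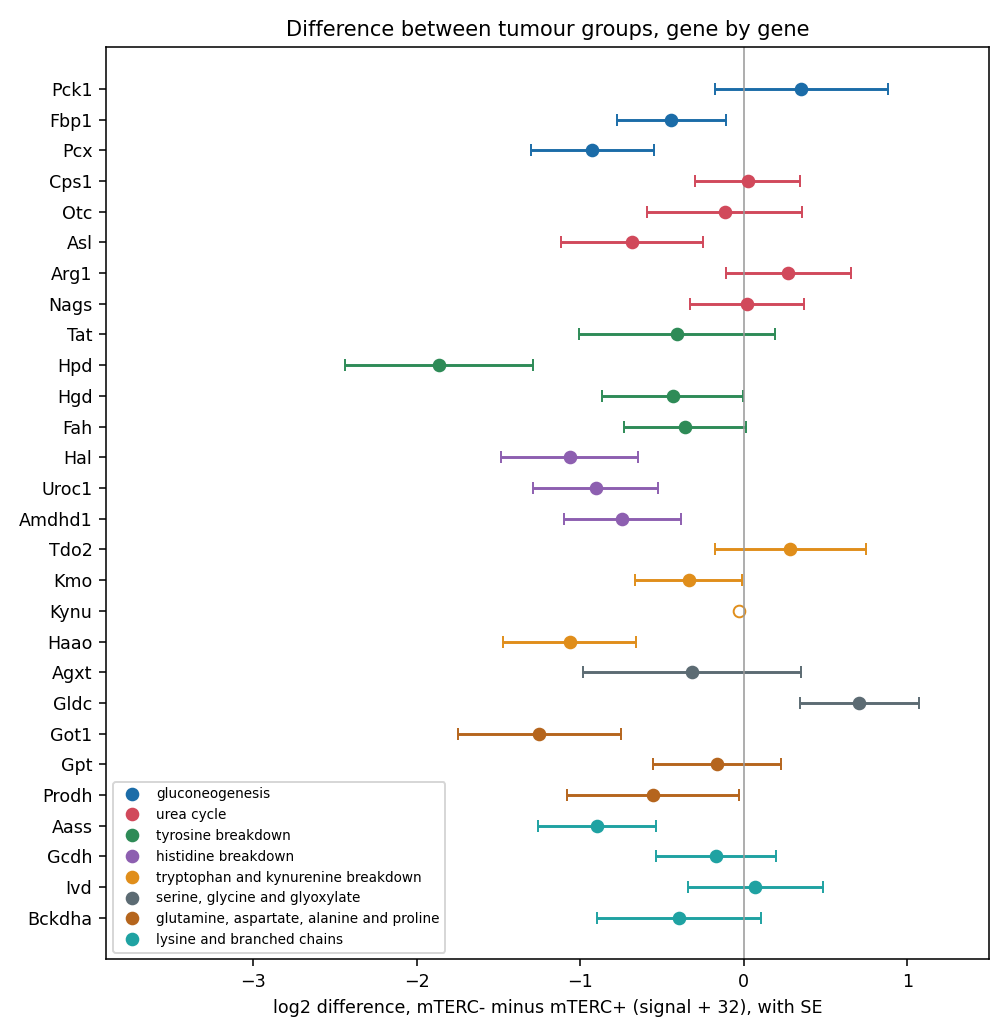
Log2 difference of the signal plus 32, mTERC- minus mTERC+ tumours (x axis), for each of the 28 enzyme genes (rows), coloured by pathway, with the limma standard error as bars; the open point is Kynu, which was not tested. Most points lie left of 0, from -1.86 for Hpd to 0.71 for Gldc, and no gene passed the adjusted threshold.

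The 3 gluconeogenic genes did not share a direction in the tumours. Pcx, pyruvate carboxylase, which makes oxaloacetate in the first step from pyruvate, had signals of 2419.5, 892 and 1267 in mTERC- tumours, against 2378, 2596 and 3151 in mTERC+ tumours. Tumours 2 and 3 of the mTERC- group were the lowest of the 6, while mTERC- tumour 1 lay inside the mTERC+ range, so the groups overlapped. The log2 difference was -0.93 ± 0.38 (SE, 3 tumours per group, limma adjusted p = 0.956), and -0.61 without mTERC- tumour 2. Pcx also has 4 control probe sets on these arrays, whose log2 differences were -0.58, 0.04, -0.38 and -0.56, smaller than that of the main probe set and least for the one at the 5′ end of the transcript.

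Pck1, phosphoenolpyruvate carboxykinase, which commits oxaloacetate to glucose, had 755, 457 and 102 in mTERC- tumours, against 215, 289 and 281 in mTERC+ tumours. The highest and the lowest signal of the 6 were both in mTERC- tumours. The log2 difference was 0.35 ± 0.53 (SE, limma adjusted p = 0.972), while a second probe set, on the tumour arrays alone, gave -0.49 and a dim one on both array types gave 0.93. Fbp1, fructose-1,6-bisphosphatase, had 5002, 5347 and 4172 in mTERC- tumours, against 8134, 7773 and 4448 in mTERC+ tumours. mTERC+ tumour 3 lay among the mTERC- tumours, and the log2 difference was -0.44 ± 0.33 (SE, limma adjusted p = 0.956).

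Between the pools, Fbp1 differed more than the other gluconeogenic genes. Its signal was 6209 in the TRF2DBDM pool and 1808 in the GFP pool, a log2 ratio of 1.76. Pck1 had 723 in the TRF2DBDM pool and 542 in the GFP pool, a log2 ratio of 0.40, and its dim probe set gave 0.62. Pcx had 888 in the TRF2DBDM pool and 722 in the GFP pool, a log2 ratio of 0.29, while its 4 control probe sets gave 0.33, -0.32, -0.51 and -0.21, so its direction depended on the probe set. The 2 pools thus differed at least 2-fold at 1 of the 3 genes.

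The urea cycle genes went both ways in the tumours, with a median log2 difference of 0.02 over 5 tested genes, 2 of them lower in mTERC- tumours. The differences ran from -0.69 for Asl to 0.27 for Arg1. Cps1, carbamoyl phosphate synthetase, the mitochondrial entry step, had 6859, 6407 and 5008 in mTERC- tumours, against 7665, 5706 and 4773 in mTERC+ tumours. The groups covered the same range, and the log2 difference was 0.03 ± 0.32 (SE, limma adjusted p = 0.995). Nags makes N-acetylglutamate, the activator that Cps1 needs, and its log2 difference was 0.02 over tumour signals of 496 to 768.

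Otc, ornithine transcarbamylase, had 2699, 695 and 2005 in mTERC- tumours, against 2832, 1452 and 1183 in mTERC+ tumours. mTERC- tumour 2 was the lowest of the 6, the others overlapped, and the log2 difference was -0.12 ± 0.47 (SE, limma adjusted p = 0.986). Asl, argininosuccinate lyase, had 2119.9, 657 and 1970.2 in mTERC- tumours, against 2358, 1629 and 3075 in mTERC+ tumours. Here too mTERC- tumour 2 was the lowest by a wide margin and the other mTERC- tumours lay inside the mTERC+ range. The log2 difference of Asl was -0.69 ± 0.43 (SE, limma adjusted p = 0.956) with all tumours and -0.15 without mTERC- tumour 2. Arg1, arginase, which releases urea, ranged over the tumours from 2773 to 7109, both ends in mTERC- tumours, with a log2 difference of 0.27 ± 0.38 (SE, limma adjusted p = 0.971). The Ass1 probe set that was on the tumour arrays alone had 97.1, 165.5 and 148.7 in mTERC- tumours, against 130.8, 71.5 and 94.7 in mTERC+ tumours.

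Between the pools, 4 of the 5 urea cycle genes were at least 2-fold higher after Ad TRF2DBDM. Cps1 had 2909 in the TRF2DBDM pool and 804 in the GFP pool, a log2 ratio of 1.81, and Otc had 431 in the TRF2DBDM pool and 106 in the GFP pool, a log2 ratio of 1.74. Arg1 had 5349 in the TRF2DBDM pool and 2342 in the GFP pool, a log2 ratio of 1.18, and Asl had 1667 in the TRF2DBDM pool and 724 in the GFP pool, a log2 ratio of 1.17. The activator gene Nags went the other way, with 444 in the TRF2DBDM pool and 604 in the GFP pool, a log2 ratio of -0.42. Thus the enzymes of the cycle that were measured were higher and the gene of the activator's synthase was not.

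The 4 tyrosine genes form one route, and all 4 had a lower mean in mTERC- tumours. Hpd, 4-hydroxyphenylpyruvate dioxygenase, the second step, had 2988, 1889 and 348 in mTERC- tumours, against 5821, 3383 and 5292 in mTERC+ tumours. Every mTERC- tumour was below every mTERC+ tumour, and mTERC- tumour 3 was far below the rest. The mean signal was 1742 ± 1326 for mTERC- and 4832 ± 1282 for mTERC+ (SD over 3 tumours). On the log2 scale the groups differed by -1.86 ± 0.57 (SE, limma adjusted p = 0.926), the largest difference among the 28 genes. Without mTERC- tumour 3 it was -0.98.

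Tat, tyrosine aminotransferase, the first step and a classic glucocorticoid-induced liver gene, had 3521, 650.4 and 586 in mTERC- tumours, against 2844, 1577 and 724 in mTERC+ tumours. Both groups spread widely and overlapped, with a log2 difference of -0.41 ± 0.60 (SE, limma adjusted p = 0.972). Hgd, homogentisate dioxygenase, the third step, had 6298, 1512 and 3916 in mTERC- tumours, against 4697, 4477 and 4426 in mTERC+ tumours. The mTERC+ tumours lay close together while the mTERC- tumours lay on both sides of them, and the log2 difference was -0.43 ± 0.43 (SE, limma adjusted p = 0.968). Fah, fumarylacetoacetate hydrolase, the last step, had tumour signals of 1121 to 2925 and a log2 difference of -0.36 ± 0.37 (SE, limma adjusted p = 0.968).

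All 4 tyrosine genes were higher after Ad TRF2DBDM, 3 of them at least 2-fold. Hpd had 7184 in the TRF2DBDM pool and 1293 in the GFP pool, a 5.45-fold ratio and the largest of the set (log2 ratio 2.45). Hgd had 2588 in the TRF2DBDM pool and 810.3 in the GFP pool, a log2 ratio of 1.64. Fah had 2466 in the TRF2DBDM pool and 1026 in the GFP pool, a log2 ratio of 1.24. Tat, the entry step, was the least different, with 1475 in the TRF2DBDM pool and 802 in the GFP pool, a log2 ratio of 0.85.

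The histidine route had the lowest tumour median of the 8 pathway groups, -0.91 over 3 genes, all with a lower mean in mTERC- tumours. Hal, histidine ammonia lyase, the entry step, had 492, 244 and 333 in mTERC- tumours, against 654, 482 and 1340.2 in mTERC+ tumours. The mTERC- tumours were at the low end, but mTERC- tumour 1 lay just above mTERC+ tumour 2. The log2 difference was -1.07 ± 0.42 (SE, limma adjusted p = 0.956), and -0.66 without mTERC+ tumour 3.

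Uroc1, urocanate hydratase, the next step, had 1064, 830.0 and 499 in mTERC- tumours, against 2105, 1056 and 1386 in mTERC+ tumours. The overlap was slight, mTERC- tumour 1 lying just above mTERC+ tumour 2, and the log2 difference was -0.91 ± 0.38 (SE, limma adjusted p = 0.956). A second Uroc1 probe set on both array types gave -0.23, and the mean of both gave -0.57. Amdhd1, imidazolonepropionase, the third step, had 238, 318 and 244 in mTERC- tumours, against 431, 379 and 611 in mTERC+ tumours. The groups of Amdhd1 did not overlap, and its log2 difference was -0.74 ± 0.36 (SE, limma adjusted p = 0.956).

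Histidine genes were also among the leaders of the adenovirus pair. Hal had 664 in the TRF2DBDM pool and 102 in the GFP pool, a 5.20-fold ratio (log2 ratio 2.38). Its neighbour Amdhd1 had 407 in the TRF2DBDM pool and 54.1 in the GFP pool, a 5.09-fold ratio (log2 ratio 2.35). Its GFP signal was near the array median of 46.1, so the size of that ratio leans on the added 32. Uroc1, the step between them in the route, had 321 in the TRF2DBDM pool and 178 in the GFP pool, a log2 ratio of 0.75.

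**Figure D2:**
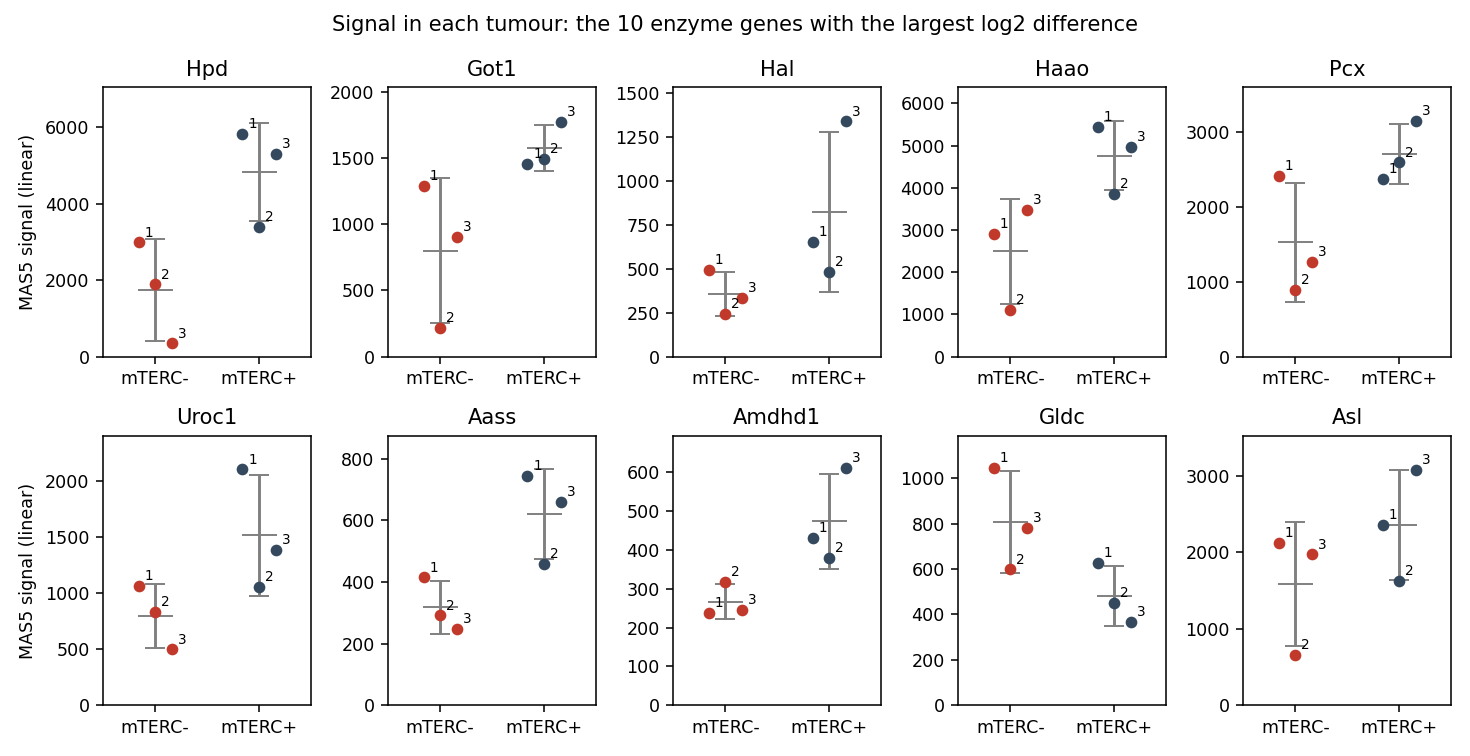
MAS5 signal (y axis, linear, each panel on its own scale from 0) in each mTERC- tumour (red) and mTERC+ tumour (dark blue) for the 10 enzyme genes with the largest log2 difference; numbers are tumour numbers, the wide bar is the group mean and the whiskers are ± 1 SD (n = 3). Groups do not overlap for Hpd, Got1, Haao, Aass and Amdhd1, and Gldc alone of the 10 has the higher mean in mTERC- tumours.

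Tryptophan breakdown starts with Tdo2, tryptophan dioxygenase, and runs through Kmo and Kynu to Haao, which makes the precursor of quinolinate. Haao, 3-hydroxyanthranilate dioxygenase, had 2916, 1100.4 and 3479 in mTERC- tumours, against 5453, 3862 and 4974 in mTERC+ tumours. Every mTERC- tumour was below every mTERC+ tumour, with means of 2499 ± 1243 for mTERC- and 4763 ± 816 for mTERC+ (SD over 3 tumours). Haao differed by -1.06 ± 0.41 on the log2 scale (SE, limma adjusted p = 0.956), and -0.56 without mTERC- tumour 2.

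Tdo2 had 5606, 1328 and 4168 in mTERC- tumours, against 3413, 2764 and 1817 in mTERC+ tumours. It was highest in mTERC- tumour 1 and lowest in mTERC- tumour 2, with a log2 difference of 0.28 ± 0.46 (SE, limma adjusted p = 0.974), opposite in sign to Haao. Kmo, kynurenine monooxygenase, had 1544, 1457 and 1732 in mTERC- tumours, against 2642, 1539 and 1958 in mTERC+ tumours. Only mTERC+ tumour 1 stood clear of the other tumours for Kmo, and its log2 difference was -0.34 ± 0.33 (SE, limma adjusted p = 0.968). The Kynu (kynureninase) probe set on both array types was dim, from 8 to 86.4 over the tumours. A second Kynu probe set, on the tumour arrays alone, was brighter, from 167.3 to 425.2, with a log2 difference of -0.13.

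After adenovirus, Haao had 1206 in the TRF2DBDM pool and 213 in the GFP pool, a 5.06-fold ratio (log2 ratio 2.34). Tdo2 had 1746 in the TRF2DBDM pool and 454 in the GFP pool, a log2 ratio of 1.87. Kmo had 1107 in the TRF2DBDM pool and 539 in the GFP pool, a 1.99-fold ratio that fell just short of the 2-fold count. This dim Kynu probe set had 12.2 in the TRF2DBDM pool and 12.1 in the GFP pool, both far below the array medians of 52.5 and 46.1 for these pools, so nothing can be read from it. The first and the last measured steps of the route were therefore the most different between the pools.

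Of the genes for serine, glycine and glyoxylate, 2 were measured. Gldc, the decarboxylase of the glycine cleavage system, had 1043, 598 and 781 in mTERC- tumours, against 628, 449.8 and 366 in mTERC+ tumours. It was the gene of the set with the largest difference in the higher direction, although mTERC- tumour 2 lay below mTERC+ tumour 1, at 0.71 ± 0.36 on the log2 scale (SE, limma adjusted p = 0.956). Agxt, alanine-glyoxylate aminotransferase, had 198, 444 and 13.7 in mTERC- tumours, against 118, 323 and 150.3 in mTERC+ tumours. Its mTERC- tumours held both the highest and the lowest signal, and the log2 difference was -0.32 ± 0.67 (SE, limma adjusted p = 0.982). The adenovirus pair set these genes apart too: Agxt had 384 in the TRF2DBDM pool and 105 in the GFP pool, a log2 ratio of 1.60, while Gldc had 194 in the TRF2DBDM pool and 244 in the GFP pool, a log2 ratio of -0.29.

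Of the transaminases and the proline gene, Got1 differed most in the tumours. Got1, the cytosolic aspartate aminotransferase, had 1289, 214 and 902 in mTERC- tumours, against 1455, 1496 and 1772 in mTERC+ tumours. All mTERC- tumours were lower than all mTERC+ tumours, and mTERC- tumour 2 was the lowest by far. The log2 difference was -1.25 ± 0.50 (SE, limma adjusted p = 0.956), and -0.53 without mTERC- tumour 2. Gpt, alanine aminotransferase, ranged over the tumours from 1841 to 4980.5 and had a log2 difference of -0.16 ± 0.39 (SE, limma adjusted p = 0.982). Prodh, proline dehydrogenase, had 132, 736 and 219 in mTERC- tumours, against 734, 261 and 414 in mTERC+ tumours, with a tumour near the top of the range in each group and a log2 difference of -0.56 ± 0.53 (SE, limma adjusted p = 0.968). Without mTERC- tumour 1 the Prodh difference was -0.082, and leaving out mTERC- tumour 2 gave -1.20. Leaving out mTERC+ tumour 1 gave -0.20, and leaving out mTERC+ tumour 2 gave -0.89.

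The adenovirus pair did not follow the same order. Got1 had 1445 in the TRF2DBDM pool and 1838 in the GFP pool, a log2 ratio of -0.34, and Gpt had 1158 in the TRF2DBDM pool and 1189 in the GFP pool, a log2 ratio of -0.04. Prodh had 335 in the TRF2DBDM pool and 89 in the GFP pool, a log2 ratio of 1.60. Got1 and Gpt were thus near 0 or below it, while Prodh was 3.03-fold higher.

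Lysine and branched-chain breakdown gave a median log2 difference of -0.28 over 4 tested genes. Aass, the bifunctional enzyme that starts lysine breakdown, had 415, 292 and 249 in mTERC- tumours, against 745, 458 and 659 in mTERC+ tumours. Its groups did not overlap and its spread was small in both, with means of 319 ± 86.3 for mTERC- and 621 ± 147 for mTERC+ (SD over 3 tumours). Aass differed by -0.90 ± 0.36 on the log2 scale (SE, limma adjusted p = 0.956), and leaving out any 1 tumour kept it between -1.09 and -0.75.

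Gcdh, glutaryl-CoA dehydrogenase, further down the lysine route, had a log2 difference of -0.17 ± 0.37 (SE, limma adjusted p = 0.982) over tumour signals of 637 to 1356. Bckdha, a subunit of the branched-chain ketoacid dehydrogenase, had 1163, 222 and 1024 in mTERC- tumours, against 1163, 771 and 728 in mTERC+ tumours. Apart from mTERC- tumour 2 the Bckdha signals overlapped, and the log2 difference was -0.40 ± 0.50 (SE, limma adjusted p = 0.969). Ivd, isovaleryl-CoA dehydrogenase of leucine breakdown, had a log2 difference of 0.07 ± 0.41 (SE, limma adjusted p = 0.992). After adenovirus, Aass had 340.2 in the TRF2DBDM pool and 106 in the GFP pool, a log2 ratio of 1.43. Bckdha had 385 in the TRF2DBDM pool and 171 in the GFP pool, a log2 ratio of 1.04, and Gcdh and Ivd were closer, with log2 ratios of 0.81 and 0.35.

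**Figure D3:**
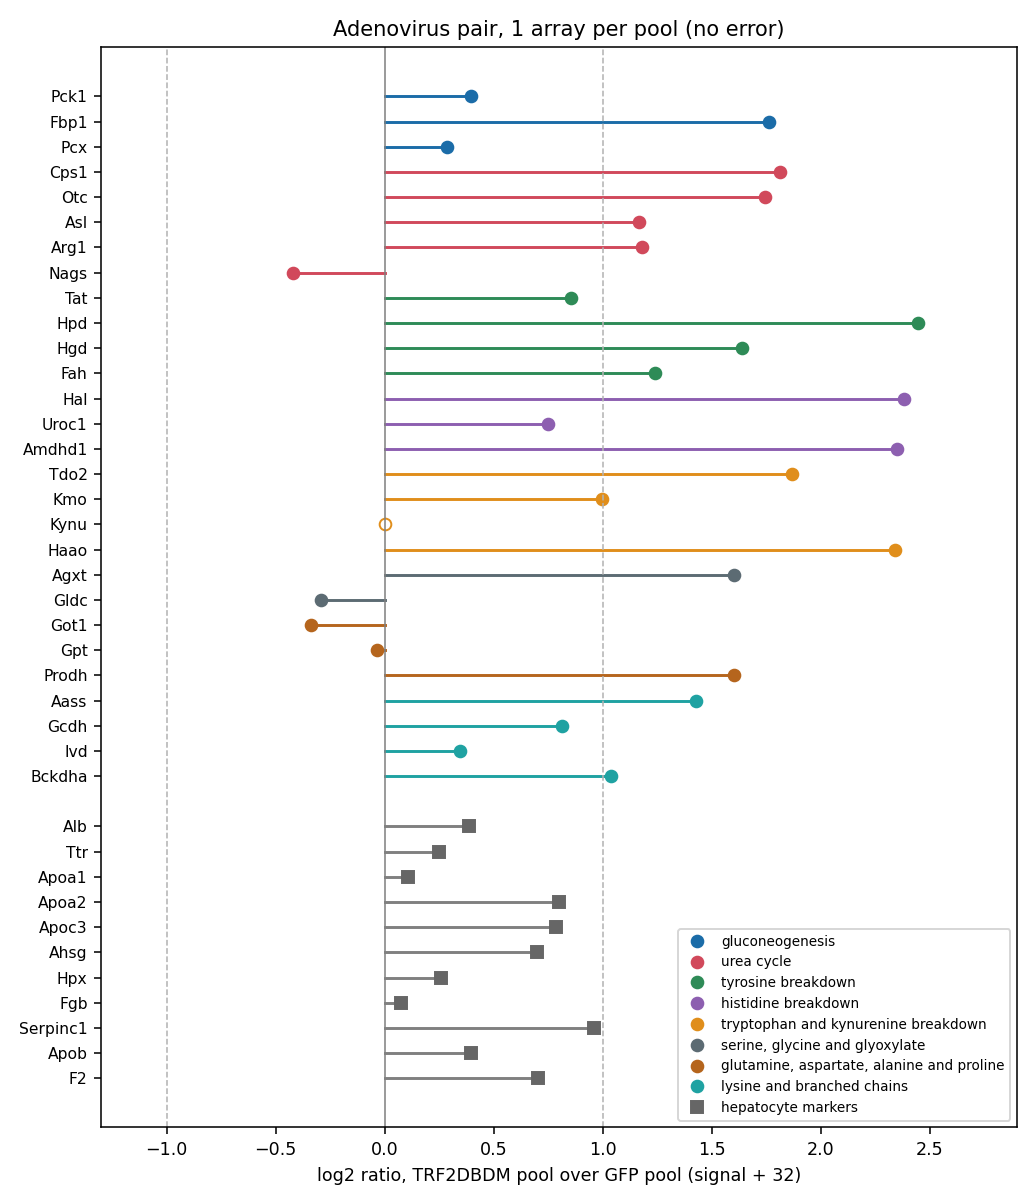
Log2 ratio of the signal plus 32, TRF2DBDM pool over GFP pool (x axis), for each of the 28 enzyme genes (upper rows), coloured by pathway. Grey squares in the lower rows are the 11 measured hepatocyte markers, which are not part of the set. The open point is Kynu, which was not compared, and dashed lines mark 2-fold. With 1 array per pool there are no error bars. The ratios of the enzyme genes run from -0.42 for Nags to 2.45 for Hpd, and 16 of the 27 compared lie at or beyond a 2-fold higher signal.

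Signals of the set varied more among mTERC- tumours than among mTERC+ tumours. The median SD of the log2 level over the 28 genes was 0.72 in mTERC- tumours and 0.40 in mTERC+ tumours, where all genes tested gave 0.52 and 0.44. The SD was the larger in mTERC- tumours for 20 of the 28 genes, against 57.1% of all genes tested. Without mTERC- tumour 2 the median SD in the mTERC- group was 0.35 for the 28 genes and 0.35 for all genes tested.

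Tumours of 1 group differed from each other across this set. As the median deviation from the 6-tumour mean of each gene, mTERC- tumour 1 was above the mean by 0.26, and mTERC- tumours 2 and 3 were at -0.31 and -0.29. In the mTERC+ group, tumours 1 and 3 were above the mean by 0.38 and 0.20, and tumour 2 was at -0.06. Over all genes tested the same medians lay between 0.02 and 0.09.

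Of the 28 genes, 12 had their lowest signal in mTERC- tumour 2, 10 in mTERC- tumour 3 and 3 in mTERC- tumour 1. For all genes tested the shares were 23.0%, 14.0% and 15.7%. The highest signal was in mTERC+ tumour 1 for 10 genes, in mTERC- tumour 1 for 8 and in mTERC+ tumour 3 for 7, and all genes tested gave 13.7%, 13.9% and 15.7%. mTERC+ tumour 2 held the highest signal of 0 of the 28 genes, against 14.4% of all genes tested. By the median over the set, mTERC- tumour 1 therefore sat with the mTERC+ tumours. This tumour was below every mTERC+ tumour for Prodh and Ivd. The same holds for Hpd, Got1, Haao, Aass and Amdhd1, but for these it follows from their choice as genes whose groups do not overlap. Most of the lowest signals were in mTERC- tumours 2 and 3, the 2 arrays with the low 18S control signal. Summed over the 28 genes, the signal was 65383, 35023 and 42049 in mTERC- tumours, against 70126, 51294 and 54924 in mTERC+ tumours.

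**Figure D4:**
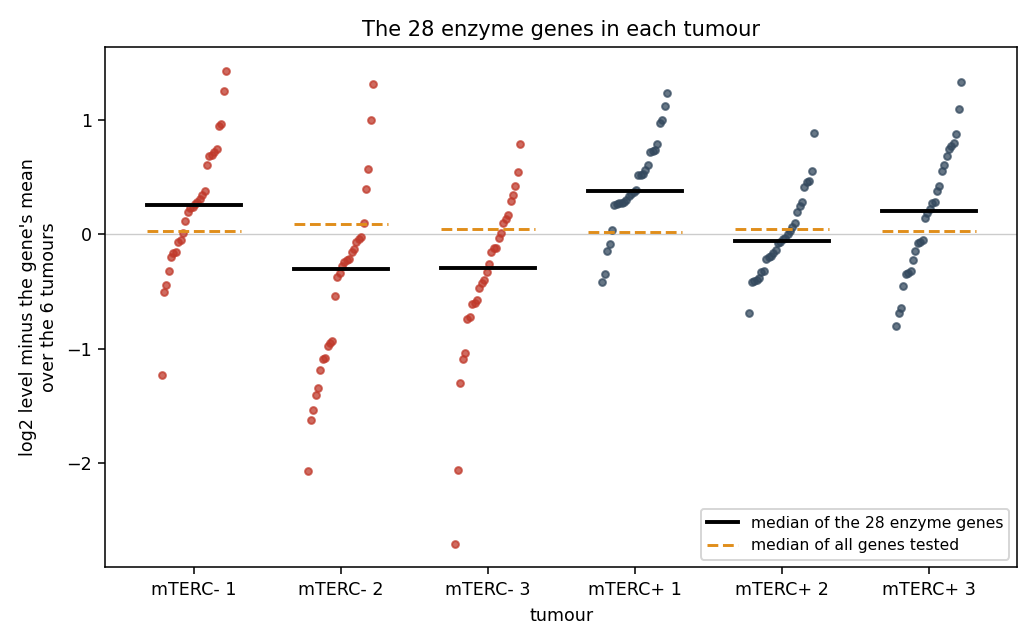
Log2 level of each of the 28 enzyme genes minus that gene's mean over the 6 tumours (y axis) in each mTERC- tumour (red) and mTERC+ tumour (dark blue); each point is a gene, sorted within a tumour, the black line is their median and the dashed line the median of all genes tested. mTERC- tumours 2 and 3 sit below the 6-tumour mean by 0.31 and 0.29 on the log2 scale and hold the lowest signal of most genes, while mTERC- tumour 1 sits above it.

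Markers of the cell types in the samples moved as follows. Of 12 hepatocyte markers, 11 were measured, all above the array median in every tumour. All 11 had a lower mean in mTERC- tumours, with a median log2 difference of -0.29, 1 with an unadjusted limma p under 0.05 (Serpinc1, -0.85, antithrombin) and 0 called. Their summed signal was 234057 to 327944 in mTERC- tumours and 291669 to 361938 in mTERC+ tumours. The enzyme genes thus differed in the same direction as the hepatocyte markers, by a median of -0.38 over the 28 measured genes.

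Other cell types differed between the tumour groups as well. All 12 tested macrophage markers had a lower mean in mTERC- tumours, with a median of -1.10, and their summed signal was 11714 to 19252 in mTERC- tumours and 10825 to 65512 in mTERC+ tumours. All 7 tested neutrophil markers had a higher mean in mTERC- tumours, with a median of 1.97. The summed signal of the neutrophil markers was 9168 to 21903 in mTERC- tumours and 360 to 3084 in mTERC+ tumours. S100a8, at 3.75 ± 0.50 (SE, limma adjusted p = 0.0237), was the 1 gene called over all genes tested. Endothelial markers had a median of -0.37 over 10 tested genes, stellate and fibroblast markers 0.05 over 9, and lymphocyte markers -0.24 over 4, while 1 biliary marker was tested. No listed marker was at 0. The part of cell make-up in the differences of the enzyme genes was not tested.

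In the adenovirus pair the 11 hepatocyte markers were all higher in the TRF2DBDM pool, 0 of them at least 2-fold, with a median log2 ratio of 0.40 and summed signals of 86044 in the TRF2DBDM pool and 63797 in the GFP pool. Of 9 macrophage markers compared, 5 were at least 2-fold higher in the TRF2DBDM pool and 1 (Cd68) at least 2-fold lower, with a median of 1.16. Neutrophil markers had a median of -0.57 over 5 genes and endothelial markers 0.17 over 9. The enzyme genes, summed, had 42612 in the TRF2DBDM pool and 17233 in the GFP pool. The median of the enzyme genes in the pair, 1.18, was larger than that of the hepatocyte markers, and the part of cell make-up in it was not tested.

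Further genes of the same pathways had smaller median differences than the set. Of 49 further enzyme and transporter genes of these routes, 43 were tested in the tumours. Of these, 24 had a lower mean in mTERC- tumours, where 49.0% of all genes tested had one, and 0 were called. At an unadjusted limma p under 0.05, 1 gene was lower, where 2.54% of all genes tested were. The median difference was -0.10. That 1 gene was Gstz1, maleylacetoacetate isomerase, which sits between Hgd and Fah in the tyrosine route. It had 1187, 314 and 1456 in mTERC- tumours, against 1330, 2164 and 2953 in mTERC+ tumours, a log2 difference of -1.28 ± 0.49 (SE, limma adjusted p = 0.956). mTERC- tumour 2 was again the lowest, and the groups overlapped.

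Of 39 further genes compared between the pools, 30 were higher in the TRF2DBDM pool, where 51.1% of all genes compared were. At least 2-fold higher were 10, where 4.24% of all genes were, and 0 were at least 2-fold lower, where 2.58% were. The median log2 ratio was 0.63. Cth, cystathionine gamma-lyase of cysteine synthesis, had 949 in the TRF2DBDM pool and 146 in the GFP pool. Its log2 ratio of 2.47 was above the largest of the set, 2.45 for Hpd. Sardh, sarcosine dehydrogenase, had 1433 in the TRF2DBDM pool and 299 in the GFP pool, a log2 ratio of 2.15. G6pc, glucose-6-phosphatase, the last step of gluconeogenesis, had 833 in the TRF2DBDM pool and 179 in the GFP pool, a log2 ratio of 2.03. In the tumours the G6pc difference was -0.04. Of the other genes of that list, Mdh1, the cytosolic malate dehydrogenase, had 2599 in the TRF2DBDM pool and 1024 in the GFP pool, a log2 ratio of 1.32. Slc37a4, the glucose-6-phosphate transporter, had a log2 ratio of 0.63 and Pck2, the mitochondrial phosphoenolpyruvate carboxykinase, -0.69.

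Of 13 regulators of these genes tested in the tumours, 0 were called. Cebpb, a bZIP factor of the acute-phase and gluconeogenic response, had 1038, 1819.8 and 1009 in mTERC- tumours, against 692, 630.1 and 574 in mTERC+ tumours. Its groups did not overlap, with a log2 difference of 0.94 ± 0.35 (SE, limma adjusted p = 0.956). Nr3c1, the glucocorticoid receptor, had 487, 346 and 558 in mTERC- tumours, against 643, 715 and 1468 in mTERC+ tumours. Its groups did not overlap either, and the difference was -0.90 ± 0.39 (SE, limma adjusted p = 0.956). Hnf4a and Cebpa, factors of hepatocyte identity, differed by 0.11 and -0.02. Of the 9 regulators compared in the adenovirus pair, 0 differed 2-fold in either direction, with a median log2 ratio of -0.12.

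Genes of the opposite end of the lobule were described in the same way. Of 7 pericentral hepatocyte genes tested in the tumours, 6 had a higher mean in mTERC- tumours, with a median log2 difference of 0.58 and 0 called. The other tested gene, Glul, differed by -0.01, and over all genes tested 49.0% had a lower mean in mTERC- tumours. Of the 10 pericentral genes measured, tested or not, 3 had a lower mean there. Cyp2e1, a cytochrome P450, had 1714, 1867 and 487 in mTERC- tumours, against 88.7, 514 and 342 in mTERC+ tumours. The mTERC- tumours 1 and 2 were clear of the mTERC+ tumours and tumour 3 lay within their range, with a log2 difference of 2.04 ± 0.57 (SE, limma adjusted p = 0.926). In the adenovirus pair 3 of 9 pericentral genes were at least 2-fold higher in the TRF2DBDM pool, where 4.24% of all genes compared were. The median log2 ratio of the 9 was 0.23, and 3 of them were lower in that pool. Cyp1a2 had 1486 in the TRF2DBDM pool and 132 in the GFP pool, a log2 ratio of 3.21, and Rgn had 621 in the TRF2DBDM pool and 64.8 in the GFP pool, a log2 ratio of 2.75. Glul, glutamine synthetase, which captures ammonia left by the urea cycle, had 1128 in the TRF2DBDM pool and 1135 in the GFP pool. So higher signals in the pair were seen in some genes of both ends of the lobule.

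The comparisons share no sample. Of the set, 13 genes had a lower mean in mTERC- tumours and an at least 2-fold higher signal in the TRF2DBDM pool. Of the 6682 genes tested in the tumours and compared in the pair, 3.14% had both. Taken singly, 20 of 27 genes of the set were lower and 16 of 27 were at least 2-fold higher. A joint count of this size can come from these 2 counts alone, so it is no evidence of a link between the comparisons. Hpd, Hal, Haao and Amdhd1 were among the 13 genes, at -1.86, -1.07, -1.06 and -0.74 in the tumours and 2.45, 2.38, 2.34 and 2.35 in the pair. Got1 had a lower mean in mTERC- tumours without a higher signal in the pair, and Gldc had a higher mean in mTERC- tumours with a ratio below 0 in the pair. Cps1, Arg1 and Tdo2 were at least 2-fold higher in the pair with tumour differences of 0.03, 0.27 and 0.28.

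**Figure D5:**
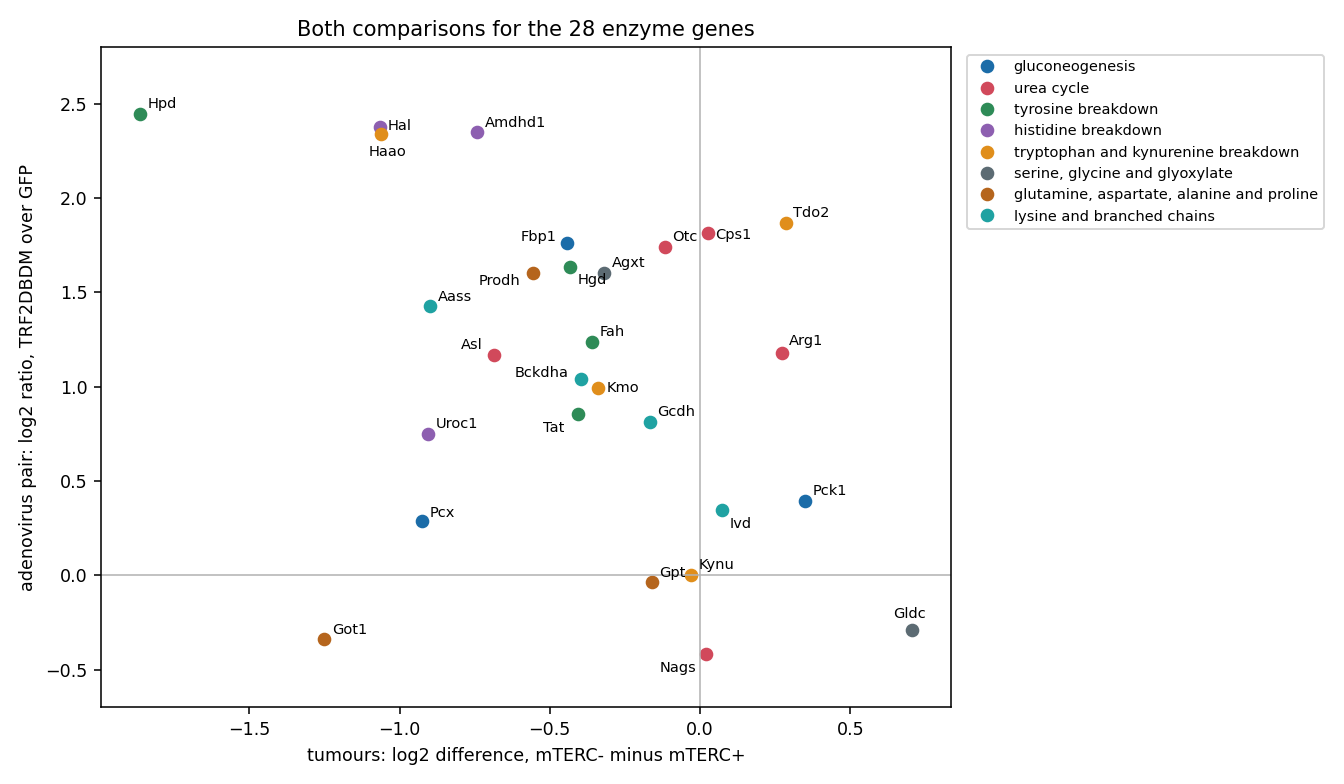
Each of the 28 enzyme genes by its log2 difference in tumours, mTERC- minus mTERC+ (x axis), and its log2 ratio in the adenovirus pair, TRF2DBDM over GFP (y axis), coloured by pathway. Hpd, Hal, Haao and Amdhd1 lie at the upper left, and Got1 and Gldc lie below 0 on the y axis at opposite ends of the x axis.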

How the data were processed

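Per the submitters' processing notes, the deposited intensity values are MAS5 signals on a linear scale, and the labels name 6 microg of total RNA per array. The authors' scaling was kept. The genome build used by the authors is not given in the sources used here. Each gene was represented by its single-symbol probe set with the highest mean over the tumours, where possible among those on both array types. Tumour genes at or above the median mean level were tested with limma 3.58.1 in R 4.3.3 on log2(signal + 32), with a variance trend, two-sided, and Benjamini-Hochberg adjustment over all 11622. The series design gives 3 mice per tumour group; the number of arrays limits the precision. Adenovirus genes whose mean level over the TRF2DBDM and GFP arrays was at or above the median mean level were compared by ratio, with no test. Tumours are numbered in order of deposition. Scripts were tested on simulated data.

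The genes, lists and motifs were chosen with earlier results of these data known. Every gene of the set could be named; per-array values were given for the 10 largest tumour differences, the non-overlapping genes and the 10 largest adenovirus ratios, and for others where a sentence compares them. Up to 3 genes by smallest p and 3 by largest ratio could be named from each other list. Some genes of the related lists are not reported here.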

Additional observations from a re-analysis of the deposited data

How the results depend on the processing

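No paired analysis was made, because the labels give no pairing of the tumours, each of which came from its own mouse. Over 18 alternative settings, 0 enzyme genes were called in the tumours in each, between 14 and 25 of 28 had a lower mean in mTERC- tumours, and the median difference ran from -0.54 without mTERC- tumour 1 to -0.03 with the 18S block. Over all genes, 1 was called, and 0 were called with median centring, a pseudocount of 1, the percentile 75 filter, the mean of shared probe sets, no variance trend, the Y-linked covariate and the 18S block. Leaving out 1 tumour gave 0 to 6. The 6 calls came on leaving out mTERC- tumour 1, and 3 came on leaving out mTERC+ tumour 2. There were 0 on leaving out any of mTERC- 2, mTERC+ 1 and mTERC+ 3. Over 8 settings of the adenovirus pair, 14 to 17 genes were at least 2-fold higher, 0 lower, and the median ran from 1.04 to 1.21.

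The sign of the tumour difference turned under some setting for 16 genes, all with overlapping groups; the cause was not tested. With the 18S block, differences were 0.11 for Agxt, 0.41 for Bckdha, 0.050 for Fah, 0.036 for Gcdh, 0.62 for Gpt, 0.47 for Hgd, -0.41 for Ivd, 0.66 for Otc and 1.23 for Tat. With the Y-linked covariate they were 0.20 for Agxt, 0.065 for Gcdh, 0.081 for Kynu, -0.074 for Nags, 0.15 for Prodh and -0.067 for Tdo2. Median centring gave -0.034 for Cps1 and -0.038 for Nags, array weights -0.055 for Cps1 and 0.074 for Otc, a pseudocount of 1 gave 0.18 for Kynu, and the highest of all probe sets -0.49 for Pck1. Leaving out 1 tumour gave -1.06 to 0.63 for Agxt, -0.14 to 0.54 for Arg1, -0.80 to 0.32 for Bckdha, -0.13 to 0.21 for Cps1, -0.56 to 0.021 for Fah and -0.37 to 0.15 for Gcdh. It gave -0.55 to 0.16 for Gpt, -0.89 to 0.13 for Hgd, -0.31 to 0.35 for Ivd, -0.38 to 0.40 for Kynu, -0.16 to 0.16 for Nags, -0.51 to 0.45 for Otc, -0.19 to 1.09 for Pck1, -1.20 to -0.082 for Prodh, -1.22 to 0.053 for Tat and -0.13 to 0.90 for Tdo2. In the adenovirus pair Kynu was -0.059 with quantile normalization and -0.11 with median centring, and Pcx -0.087 with the mean of shared probe sets. Hpd, Got1, Hal, Haao, Pcx, Uroc1, Aass, Amdhd1, Asl, Fbp1 and Kmo stayed lower and Gldc higher in mTERC- tumours in each setting run. The size of these differences was less stable than their sign. With the 18S block it was -0.65 for Hpd, -0.58 for Hal, -0.44 for Uroc1, -0.39 for Fbp1, -0.15 for Pcx and -0.10 for Asl. Over all the settings, the value nearest 0 was -0.28 for Got1, -0.52 for Aass, -0.56 for Haao, -0.56 for Amdhd1, -0.14 for Kmo and 0.51 for Gldc.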
